A study of Mus musculus with 15 samples.

Results

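The genes that make, degrade and read cyclic AMP were measured in the mouse dentate gyrus, in tissue and on the tagged ribosomes of its principal neurons. They were chosen by symbol from the raw count files. The choice took the adenylyl cyclases (Adcy), the phosphodiesterases (Pde), the subunits of protein kinase A (Prka), the exchange factors Rapgef2, Rapgef3, Rapgef4 and Rapgef6, the A-kinase anchoring proteins (Akap), the stimulatory G protein alpha subunits Gnas and Gnal, and the transcription factors Creb1, Crem and Atf1 with the coactivators Crtc1, Crtc2 and Crtc3. This gave 65 genes among 32657 features, namely 2 G protein alpha subunits, 10 cyclases, 22 phosphodiesterases, 6 kinase subunits, 4 exchange factors, 15 anchoring proteins and 6 CREB family genes. Of these, 64 had at least 1 count in some library, and the remaining gene was Akap4.

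A receptor coupled to the stimulatory G protein releases its alpha subunit, which switches on adenylyl cyclase. Cyclic AMP then acts on protein kinase A, which AKAPs hold near its substrates, and on the Epac exchange factors Rapgef3 and Rapgef4. These activate small G proteins of the Rap family. Rapgef2 and Rapgef6 were taken by symbol, and whether cyclic AMP acts on them was not examined. Phosphodiesterases end the signal, and in the nucleus phosphorylated CREB family proteins work with Crtc coactivators on genes that carry a cyclic AMP response element. In granule cells this pathway is best known for its part in plasticity at the mossy fibre synapse.

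All mice were on a C57BL/6J background, were 8 to 12 weeks old and carried the Drd3-Cre KI198 transgene with Rosa26-fsTRAP, so that Cre-expressing cells made the ribosomal protein L10a fused to EGFP. The tagged cells are granule cells and mossy cells according to the labels. The cKO mice carried Htr4-Floxed alleles in addition, in which Cre removes exon 5 of the serotonin receptor gene Htr4, a Gs-coupled receptor. TRAP IP is the RNA bound to the tagged ribosomes of the ventral dentate gyrus (vDG), and input is the RNA of a homogenate of vDG or dorsal dentate gyrus (dDG) before the IP. By the methods a vDG input is a fraction of the extract the IP was made from, but which IP and input share an extract was not given, and the tests took libraries as independent. There were 3 WT and 2 cKO libraries of each kind, 15 in 6 groups, each from pooled animals (3 mice per IP and 2 per input in the labels, 1 male and 1 female in the methods). Drd3-Cre KI198 is a BAC line that does not copy the whole Drd3 pattern and also labels some CA pyramidal cells. The same records that give the brain region of the inputs as dentate gyrus name cortex in their source field. In a bulk library, fewer cells of a type and less RNA per cell cannot be told apart, and p-values measure the spread between these pools.

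Counts on genes ranged from 19039295 to 30451430 per library. The sum of 7 interneuron markers was 368 to 507 CPM (normalised counts on the CPM scale with TMM factors) in vDG inputs and 116 to 190 in vDG IPs, and that of 5 astrocyte markers was 294 to 505 against 46.6 to 101. The sum of 4 mossy cell markers, mostly Calb2, was 60.9 to 91.9 CPM in all vDG libraries and 4.38 to 7.18 in dDG inputs. Calb2 encodes calretinin, which the paper also used to mark immature neurons. This sum is therefore not a measure of the number of mossy cells. The sum of 6 CA pyramidal markers was 237 to 322 in vDG inputs and 162 to 228 in dDG inputs. Choroid plexus markers reached 98.1 and 150 CPM in WT dDG inputs 2 and 3 and 18.6 to 35.8 in every other library. Htr4 read 13.6, 15.9 and 15.6 CPM in the WT IPs and 30.2 and 26.9 in the cKO IPs. A gene-level count does not show whether exon 5 is absent, so it does not check the deletion.

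Levels of different genes are compared here per kilobase of exon (RPKM, computed from the counts), and these depend on the annotated exons. Gnas, the alpha subunit of Gs, stood at 193 ± 30.6 RPKM in the WT vDG IP (SD, n = 3), and Gnal, its olfactory and striatal relative, at 32.4 ± 3.50. Among the cyclases the calcium- and calmodulin-stimulated Adcy1 was first at 64.5 ± 10.2, followed by Adcy9 at 45.9 ± 3.53 and Adcy2 at 13.0 ± 1.22. The ranges of Adcy1 and Adcy9 in this group did not touch those of any other cyclase. Of the phosphodiesterases, the calcium- and calmodulin-stimulated Pde1a reached 137 ± 24.1 and the cGMP-stimulated Pde2a 36.6 ± 2.22. Pde1a alone made up 39.8 to 47.7% of the summed RPKM of its class in the 3 WT IPs.

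The type I regulatory subunit Prkar1a stood at 187 ± 36.4 RPKM, and the catalytic subunits Prkacb and Prkaca stood at 143 ± 9.59 and 120 ± 16.6. The means of Prkacb and Prkaca lay within 2 SD of that of Prkar1a. Rapgef2 led the exchange factors at 34.9 ± 3.64 before Rapgef4 at 18.3 ± 2.01. Akap11 (53.3 ± 3.39) and Akap5 (45.6 ± 1.32), the latter a postsynaptic anchor, led the AKAPs. Crtc1, the coactivator most studied in neurons, stood at 34.4 ± 1.28 and Creb1 at 9.89 ± 0.473.

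**Figure D1:**
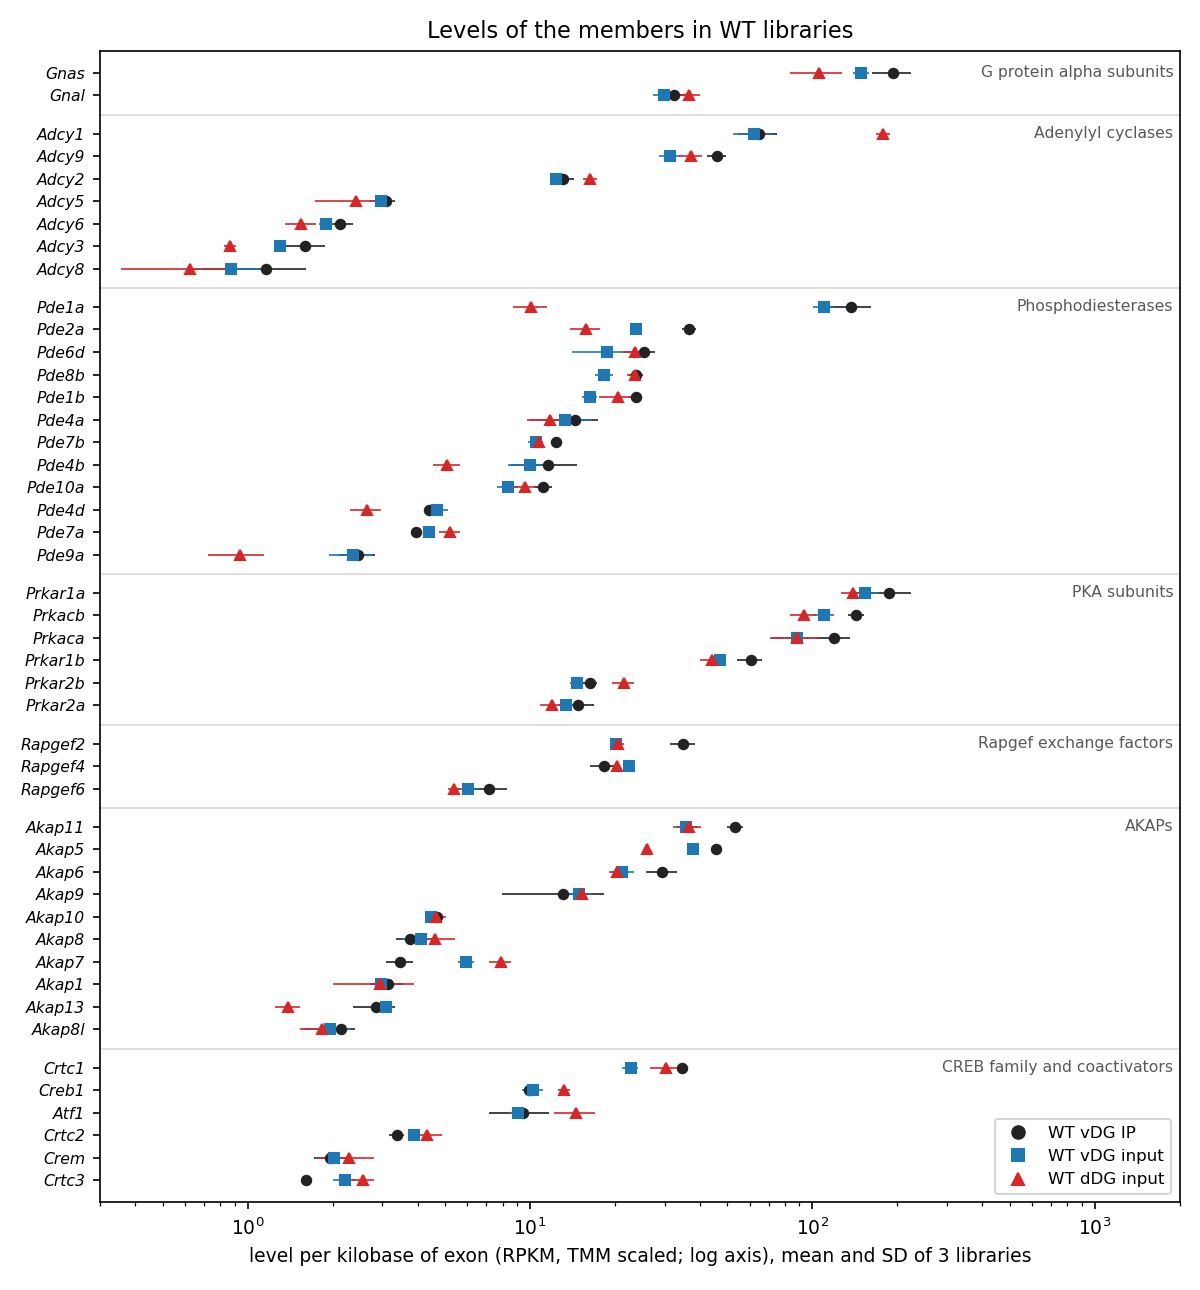
Level per kilobase of exon (RPKM, log axis) of the members with at least 1 RPKM in the WT vDG IP, with the mean and SD of 3 WT libraries for vDG IP (circles), vDG input (squares) and dDG input (triangles). Adcy1 lies far to the right and Pde1a far to the left in the dDG input.

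Low members did not enter the tests. Adcy4 had at most 13 counts in any library, Pde4c 8, Pde6a 4, Pde6b 17, Pde6c 5, Akap3 7 and Akap2 2, and Akap4 had 0, and these 8 passed the count filter in no comparison. Akap14, with at most 22 counts, passed in 3 of 9 comparisons, and Adcy7, with at most 40, failed it once. Neither was called. Of the other members, 41 were called in some comparison, and 14 entered all 9 and were called in none, at levels from 1.96 RPKM (Crem) to 187 RPKM (Prkar1a) in the WT vDG IP. These were Adcy5, Adcy6, Pde4a, Pde6d, Pde7b, Prkar1a, Prkar1b, Prkar2a, Rapgef6, Akap1, Akap8l, Akap10, Crem and Crtc2. Akap2 overlaps Pakap on the same strand, and reads on several genes were not counted for any of them. With an unstranded library, reads of Gnas and its antisense partner Nespas, of Akap9 and Cyp51 and of Adcy3 and Cenpo cannot be assigned to either where their exons meet.

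The IP was set against the input of the same region to ask which members were carried on the ribosomes of the tagged cells. In WT, 8 members were higher in the IP and 9 lower, of 56 tested (30.4%), where 23.9% of all 15011 genes passed the same test (7.73% higher, 16.1% lower; edgeR quasi-likelihood test, FDR under 0.05). The median log2 fold change was 0.05 over the members and 0.00 over all genes. In cKO, 14 members were higher and 11 lower of 55 (45.5%), beside 27.5% of all genes (11.8% higher, 15.7% lower), with medians of 0.06 and -0.03. The WT and cKO libraries are separate, and 47 of the 55 members tested in both (85.5%) had the same sign. All 8 members higher in WT were also called higher in cKO, where they were 57.1% of those called, and 5 of the 9 lower in WT were called lower in cKO, which is 55.6% of the WT and 45.5% of the cKO calls. No member was called in opposite directions.

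Rapgef2, an exchange factor for Rap, had the largest rise in the IP. It stood at 534, 434 and 502 CPM in the WT IPs and 297, 282 and 272 in the WT inputs. In cKO the values were 301 and 388 in the IPs and 191 and 224 in the inputs. IP and input did not overlap within either genotype, with log2 fold changes of 0.73 for WT (SE 0.12, FDR = 4.95e-04, edgeR) and, for cKO, of 0.68 (SE 0.13, FDR = 0.00227). The gene 4921511C10Rik overlaps it on the opposite strand.

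Pde2a, which cGMP stimulates, read 240, 213 and 223 CPM in the WT IPs against 142, 145 and 152 in the inputs. Its cKO values were 236 and 210 against 152 and 142. The ranges were apart in both genotypes, with log2 fold changes of 0.57 (FDR = 0.00212) and 0.55 (FDR = 0.00201). Crtc1 was 396, 369 and 389 CPM in the WT IPs and 239, 272 and 252 in the inputs, a log2 fold change of 0.54 (FDR = 0.00259), with 0.54 in cKO (FDR = 0.00129). Adcy9, a cyclase that calmodulin does not stimulate, read 223, 234 and 259 CPM in the WT IPs and 151, 178 and 159 in the inputs. It rose by 0.50 in WT (FDR = 0.00660) and 0.54 in cKO (FDR = 0.00201), whereas Adcy1 differed by 0.00 in WT and -0.06 in cKO and was called in neither.

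The other members called higher in both genotypes were Pde1b (0.49 and 0.65 on the log2 scale, WT then cKO), Akap11 (0.52 and 0.55), Akap6, an anchor of the nuclear envelope (0.42 and 0.51), and Pde10a (0.36 and 0.33). Catalytic subunits of the kinase were called higher in cKO. Prkaca read 353 and 357 CPM in the cKO IPs against 234 and 235 in the inputs, a log2 fold change of 0.55 (FDR = 0.00116), and Prkacb read 1495 and 1419 against 971 and 1155, a log2 fold change of 0.40 (FDR = 0.0130). In WT their values were 0.38 and 0.33, and no kinase subunit passed the test there (lowest FDR 0.0511). Gnas (0.37), Pde8b (0.42), Pde1a (0.30) and Akap5 (0.28) passed in cKO but not in WT, where their values were 0.32, 0.32, 0.26 and 0.21. The difference between genotypes in IP enrichment was tested as an interaction, and 0 of 57 members and 0 of 16093 genes passed it with edgeR. DESeq2 called 0 members too, and 1 member (Akap14, 22 counts at most) had an unadjusted p under 0.05, beside 3.09% of all genes.

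Several low phosphodiesterases were lower in the IP. Pde8a, a high-affinity cyclic AMP phosphodiesterase, stood at 0.881, 0.948 and 0.475 CPM in the WT IPs against 2.14 to 4.02 in the inputs. In cKO it stood at 1.05 and 0.635 against 3.29 and 2.26. The groups did not overlap, with log2 fold changes of -1.94 (FDR = 0.00224) and -1.77 (FDR = 0.0160). Pde5a, which is specific for cGMP, was 2.76, 3.52 and 5.14 CPM in the WT IPs and 7.96, 8.83 and 8.89 in the inputs, a log2 fold change of -1.22 (FDR = 0.00138), with -1.36 in cKO (FDR = 0.00245). Pde1c gave -1.32 in WT (FDR = 0.00159) and -1.74 in cKO (FDR = 0.0280), although its cKO IPs differed among themselves, at 2.52 and 0.551 CPM. Akap12 (-1.17 and -1.28) and Akap7 (-0.83 and -0.57) were lower in both genotypes.

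Pde3a (-1.38), the Epac exchange factors Rapgef3 (-1.05) and Rapgef4 (-0.35), and Crtc3 (-0.51) were called lower in WT alone, where Rapgef3 read at least 2.76 CPM in each input and less in each IP. In cKO alone the calls were Pde11a (-2.24), the soluble cyclase Adcy10 (-1.72), Pde3b (-0.98), Akap8 (-0.58), Akap13 (-0.45) and Creb1 (-0.30). Pde11a and Adcy10 were close to the detection limit, at 0.238 and 0.212 CPM and at 0.855 and 0.847 CPM in the cKO IPs. In the same comparison 6 of 7 interneuron, 5 of 5 astrocyte, 4 of 5 oligodendrocyte and 5 of 5 microglia markers were lower in the WT IP, with list medians of -2.67, -2.95, -2.69 and -3.33 on the log2 scale, and none of these markers was at 0. Also lower there were 2 of 3 tested choroid plexus (median -2.41), 2 of 4 endothelial and mural (-1.23), 2 of 3 immature neuron (-0.88) and 2 of 3 striatal projection neuron markers (-0.72). Granule cell markers were called higher in the IP for 2 of 6 in WT and 5 of 6 in cKO, and the sum of CA pyramidal markers was 305 to 394 CPM in the vDG IPs, with 2 of 6 lower in WT and 1 higher and 1 lower in cKO. Their part in the members' values was not tested.

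**Figure D2:**
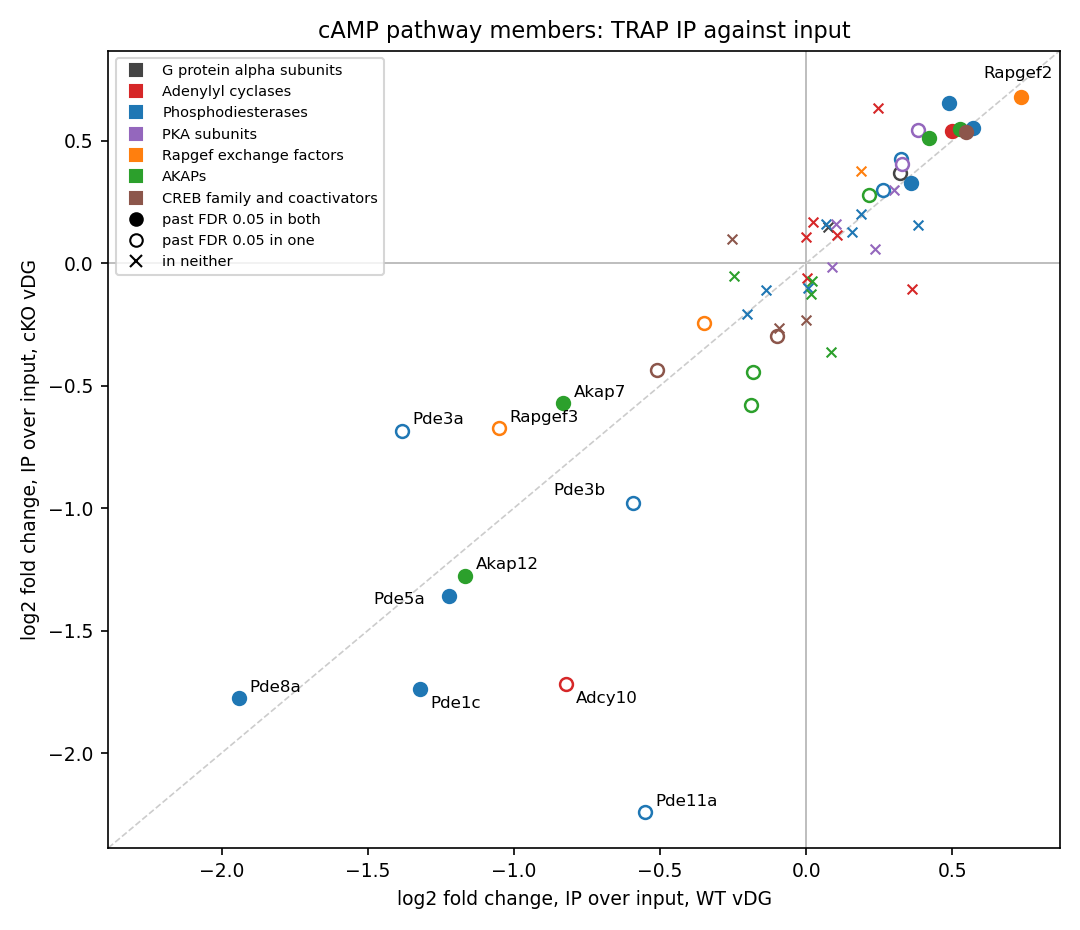
Log2 fold change of IP over vDG input for each member tested in both genotypes, WT on the horizontal and cKO on the vertical axis, coloured by class, with filled circles for members past FDR 0.05 in both, open circles for those past it in 1 genotype and crosses for the rest. Most members lie near the dashed line of equal change, with Rapgef2 at the top right and Pde8a, Pde1c, Pde5a and Akap12 at the bottom left.

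The calls in WT kept in every fit that left out 1 library were 6 of 8 higher (Adcy9, Pde1b, Pde2a, Rapgef2, Akap11 and Crtc1) and 6 of 9 lower (Pde1c, Pde3a, Pde5a, Pde8a, Akap12 and Akap7). In cKO they were 9 of 14 higher (8 under every other setting too) and 1 of 11 lower (Pde5a), and the 25 calls became 13 without cKO input replicate 1 and 15 without cKO input replicate 2. Scaling by library size alone in place of TMM moved the median of all genes from 0.00 to -0.13 in WT and from -0.03 to -0.20 in cKO, and split the member calls 6 higher to 10 lower in WT and 8 to 13 in cKO. Of all genes, 23.4% in WT and 26.3% in cKO were called with that scaling. Under that scaling Gnas, Pde1a, Pde8b, Pde10a, Prkacb and Akap5 lost their cKO calls.

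The ventral and dorsal inputs were compared to describe the members along the long axis of the dentate gyrus. In WT, 11 members were higher and 7 lower in vDG of 56 tested (32.1%), beside 15.3% of all 15412 genes (9.26% higher, 6.09% lower). In cKO, 12 were higher and 12 lower of 57 (42.1%), beside 17.0% of all genes (8.56% higher, 8.47% lower). The medians were 0.04 and 0.03 over the members and -0.01 and 0.01 over all genes. Of the WT calls, 9 of 11 higher (81.8%) and 4 of 7 lower (57.1%) were called in the same direction in cKO, where they were 75.0% and 33.3% of the calls. The phosphodiesterases, the largest class with 18 members tested, accounted for 7 of the 11 higher members in WT and 8 of 12 in cKO. These were 38.9% and 44.4% of the class, beside 19.6% and 21.1% of all members tested.

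Pde1a (ENSMUSG00000059173, chromosome 2 of mm10, 79834453 to 80129458, minus strand) had the largest difference. It stood at 596, 701 and 688 CPM in the WT vDG inputs and 51.4, 63.8 and 66.8 in the WT dDG inputs. In cKO the inputs read 610 and 590 against 75.9 and 94.4. Every ventral library was above every dorsal library in each genotype, and the fitted group difference was 11.1-fold in WT (log2 fold change 3.47, SE 0.13, FDR = 5.79e-11, the lowest of all 15412 genes) and 7.09-fold in cKO (2.83, SE 0.13, FDR = 4.33e-12). The vDG IPs read 833, 674 and 964 CPM in WT and 802 and 725 in cKO, so that 4 of the 5 IPs were above every vDG input. Pde1a made up 43.6 to 46.0% of the phosphodiesterase RPKM in the WT vDG inputs and 6.32 to 7.65% in the WT dDG inputs, where Pde8b, Pde6d and Pde1b each had a larger share in every library. The class was taken by symbol alone. Pde6d, at 15.5 to 17.1% in the WT dDG inputs, therefore counts in every class sum given here whether or not its product is an enzyme.

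Adcy1 (ENSMUSG00000020431, chromosome 11, 7063489 to 7178506, plus strand) went the other way. Its values were 698, 919 and 714 CPM in the WT vDG inputs and 2360, 2199 and 2119 in the WT dDG inputs. In cKO they were 676 and 780 against 1989 and 2429. Dorsal libraries were all above ventral ones, and Adcy1 was 2.82-fold lower in vDG of WT (SE of the log2 value 0.12, FDR = 2.09e-07) and 3.02-fold lower in that of cKO (log2 fold change -1.59, SE 0.12, FDR = 1.57e-08). Its share of the summed cyclase RPKM was 53.3 to 57.1% in the WT vDG inputs and 73.6 to 76.3% in the WT dDG inputs. The summed cyclase level was 104 to 129 RPKM in WT vDG and 230 to 252 in WT dDG inputs, while the summed phosphodiesterase level was 228 to 253 and 135 to 153.

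Pde9a, specific for cGMP, read 9.86, 6.87 and 8.39 CPM in the WT vDG inputs and 3.91, 3.54 and 2.48 in the dDG inputs. It was higher in vDG by 1.37 on the log2 scale in WT (FDR = 3.69e-04) and 1.58 in cKO (FDR = 2.78e-05). Pde4b, a cyclic AMP-specific enzyme, read 93.7, 126 and 97.7 CPM against 47.2, 54.9 and 59.0 in WT, a log2 difference with a 95% interval of 0.72 to 1.28 (FDR = 4.92e-05), and 0.47 in cKO (FDR = 0.00882). Its relative Pde4d gave 0.85 and 0.42. Pde2a (0.62 and 0.61), Pde3a (0.94 and 1.03) and Pde5a (0.75 and 0.79) were also higher in vDG in both genotypes. Pde8b was lower in both (-0.34 and -0.49).

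Akap13, which also activates the small G protein RhoA, stood at 68.2, 65.5 and 60.5 CPM in the WT vDG inputs and 31.0, 25.7 and 30.7 in the dDG inputs. The log2 fold change was 1.17 in WT (FDR = 4.93e-06) and 0.63 in cKO (FDR = 0.00371). Akap5 was higher in vDG by 0.57 and 0.47. Prkar2b, a type II regulatory subunit, was lower in vDG, at 53.3, 50.7 and 56.5 CPM against 73.3, 86.6 and 75.4 in WT, a log2 fold change of -0.53 (FDR = 0.00424), with -0.59 in cKO (FDR = 0.00130). The other kinase subunits were not called in either genotype, and their log2 fold changes lay between -0.03 and 0.28 over both genotypes.

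Adcy2, a cyclase that G protein beta-gamma subunits can stimulate, was lower in vDG of both genotypes, where WT gave a log2 fold change of -0.38 (FDR = 0.0292) and cKO one of -0.77 (FDR = 2.80e-04). Calls in WT alone were Gnas (0.52) and Adcy3 (0.61) higher and Creb1 (-0.34) and Crtc1 (-0.39) lower. The regions did not overlap for Gnas, at 1545, 1701 and 1746 CPM in the WT vDG inputs against 1063, 1013 and 1461 in the dDG inputs. In cKO alone, Adcy8 (1.21) and Pde1c (1.07) were higher in vDG, and Adcy9 (-0.61), Akap9 (-0.63), Rapgef2 (-0.47), Pde7a (-0.40), Akap7 (-0.38), Akap6 (-0.36), Akap11 (-0.34) and Gnal (-0.31) were lower.

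**Figure D3:**
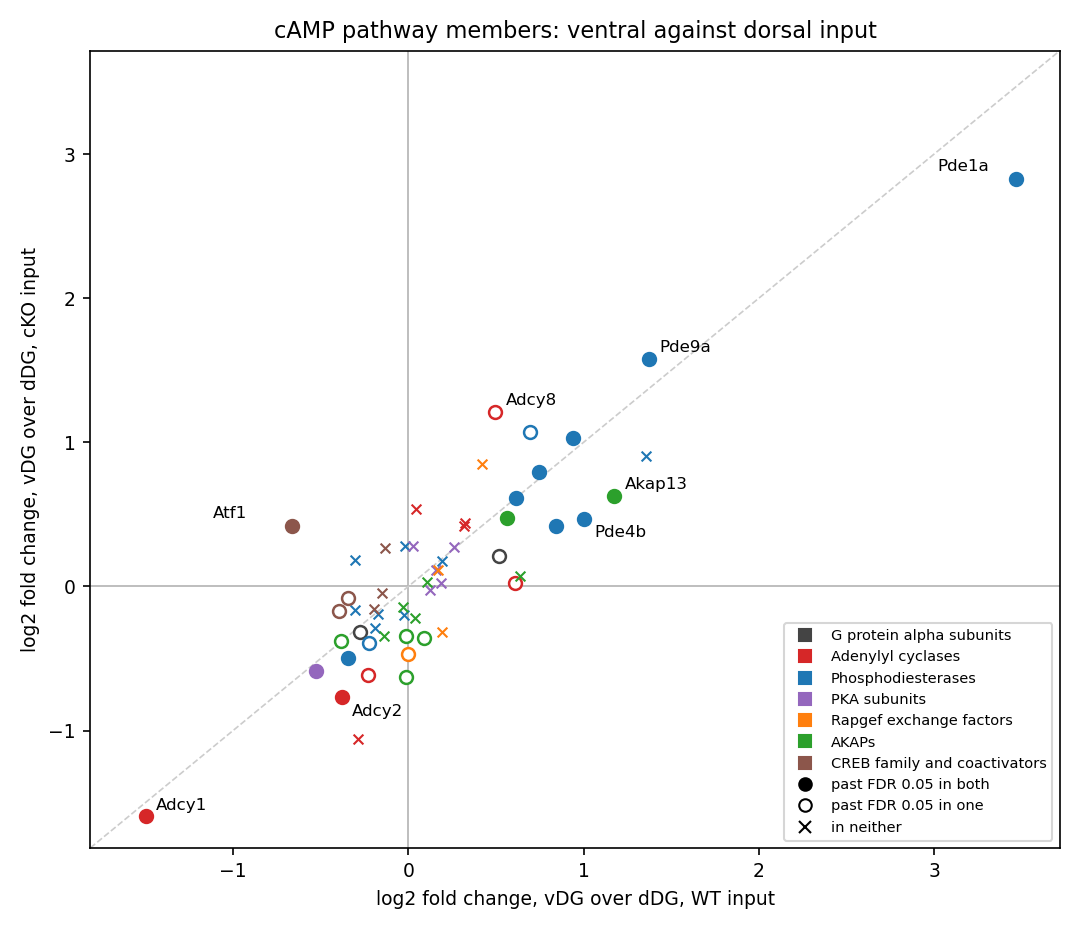
Log2 fold change of vDG over dDG input for each member tested in both genotypes, WT on the horizontal and cKO on the vertical axis, coloured by class, with filled circles for members past FDR 0.05 in both, open circles for those past it in 1 genotype and crosses for the rest. Pde1a lies alone at the top right and Adcy1 at the bottom left, and Atf1 is the filled point below zero in WT and above zero in cKO.

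Cell markers differed between the regions too. Calb2 read 63.7 to 81.1 CPM in the WT vDG inputs and 1.35 to 2.99 in the WT dDG inputs, 2 of 4 mossy cell markers were higher in vDG in WT, 2 of 6 CA pyramidal markers were higher and 1 lower, and 4 of 6 granule cell markers were lower. Of the other lists in WT, 2 of 7 interneuron markers and 1 of 4 tested markers of immature neurons were higher in vDG. Lower in vDG were 2 of 5 oligodendrocyte markers, 2 of 4 tested choroid plexus markers (list median -1.85) and 2 of 4 tested markers of striatal projection neurons (list median -1.42). In cKO 5 of 6 granule cell and 2 of 5 immature neuron markers were lower in vDG, 2 of 4 mossy cell and 2 of 7 interneuron markers were higher, and of 3 tested choroid plexus markers 1 was higher and none lower (list median 0.21). None of the 4 mossy cell markers was at 0 in the dDG inputs. The part of these cell types in the region differences was not tested. In WT, 8 of the 11 higher calls (Pde1a, Pde2a, Pde3a, Pde4b, Pde4d, Pde9a, Akap13 and Akap5) and 3 of the 7 lower calls (Adcy1, Prkar2b and Atf1) were kept in every fit that left out 1 library, and in cKO 5 of 12 and 6 of 12. In every alternative, other settings included, 6 and 2 of these WT calls were kept (not Pde3a, Akap5 and Prkar2b) and 4 and 5 of the cKO calls (not Adcy8 and Akap9). The 24 cKO calls became 15 without cKO dDG replicate 2. With WT dDG replicates 2 and 3 left out together, 10 higher and 3 lower members were called in WT, Pde1a and Adcy1 among them, and 11 of these 13 were calls of the full fit. This leaves a lone WT dDG library, whose spread is taken from the vDG inputs, so the counts are not read as a result about the members.

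The cKO was set against WT in each of the 3 RNA preparations to ask whether loss of a Gs-coupled receptor went with changes in the pathway below it. In the IP, 0 of 56 members passed FDR under 0.1, beside 0.420% of all 14300 genes. At an unadjusted p under 0.05 there were 11 members (19.6%), beside 11.7% of all genes. DESeq2 called Rapgef2 and Akap8 lower, beside 2.47% of all genes. In the vDG input 1 of 56 members passed FDR under 0.05, or 1.79%, beside 2.44% of all 15786 genes, and 7 (12.5%) had an unadjusted p under 0.05, beside 14.8% of all genes. DESeq2 called Adcy2, Adcy3 and Rapgef2 lower and Atf1 higher there (7.14% of the members tested), beside 3.97% of all genes. In the dDG input 0 of 56 passed, beside 0.0325% of 15383 genes, with 13 members (23.2%) at an unadjusted p under 0.05, beside 12.2% of all genes, and DESeq2 called Atf1 lower, beside 1.22% of all genes. Without WT dDG replicates 2 and 3 there were 7 calls in the dDG input (Gnas, Adcy5, Pde1a, Pde4a and its relatives Pde4b and Pde4d, and Atf1), from a lone WT library, or 12.3% of the members tested beside 7.03% of all genes in the same fit. Median differences of the members were -0.03, -0.03 and 0.03 on the log2 scale in the IP, the vDG input and the dDG input, against 0.00, 0.01 and -0.02 over all genes.

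The member called was Adcy2 (ENSMUSG00000021536, chromosome 13, 68620043 to 68999541, minus strand). It stood at 51.7, 54.9 and 49.7 CPM in the WT vDG inputs and 36.1 and 32.4 in the cKO vDG inputs. Its IP values were 49.5, 59.8 and 55.5 in WT and 39.0 and 40.8 in cKO. In the dDG inputs it read 71.8, 64.5 and 70.2 in WT and 53.3 and 63.9 in cKO. The cKO libraries were below the WT libraries in all 3 preparations, with log2 fold changes of -0.61 in the vDG input (SE 0.14, FDR = 0.0170), -0.45 in the IP (SE 0.15, FDR = 0.272) and -0.24 in the dDG input (SE 0.12, FDR = 0.452). The difference between the regions was -0.39 on the log2 scale (95% interval -0.75 to -0.03, FDR = 0.369). The call in the vDG input was lost without cKO vDG replicate 1 (FDR = 0.194) or replicate 2 (FDR = 0.273), which leave 1 cKO library that is assumed to vary like the WT libraries, and with the replicate block after removal of the length trend (FDR = 0.109). In the vDG inputs 3 of 5 astrocyte markers were lower in cKO (sums of 294 and 331 CPM against 404 to 505 in WT). In the same comparison 1 of 2 oligodendrocyte precursor markers (Cspg4) and 1 of 6 granule cell markers (Dsp) were called lower and 1 of 4 tested choroid plexus markers (Ttr) higher, and the list medians were -0.62 for microglia and -0.66 for endothelial and mural cells, with no call in either. The part of these cell types in the value of Adcy2 was not tested.

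Other members with an unadjusted p under 0.05 in a comparison of genotypes were chosen after their values were seen and did not pass the edgeR threshold of their comparison. They split 4 higher to 7 lower in the IP, 2 to 5 in the vDG input and 9 to 4 in the dDG input, Adcy2 and Atf1 included. At FDR under 0.1 the vDG input would hold Rapgef2, Adcy3, Atf1 and Pde6d besides Adcy2. Rapgef2 was below WT in the IP (-0.50, FDR = 0.231) and in the vDG input (-0.46, FDR = 0.0580), with every cKO library below every WT library in both. Akap8 had the lowest FDR of any member in the IP (-0.62, FDR = 0.189), at 34.5, 34.8 and 28.4 CPM in WT and 20.9 and 21.2 in cKO, and its paralogue Akap8l gave -0.76 (FDR = 0.225). The higher members in the IP were Pde4a (0.42, FDR = 0.346), Crtc2 (0.41), Pde6d (0.31) and Pde1b (0.28). Pde11a, near the detection limit, gave -2.03 there. Prkar1a gave -0.42 in the IP (FDR = 0.336), where the WT libraries ranged from 654 to 969 CPM and the cKO libraries read 582 and 616. In the vDG input Adcy3 gave -0.68 (FDR = 0.0748) and Pde6d 0.52 (FDR = 0.0880), besides Akap9 (-0.36) and Akap6 (-0.31). Pde1a gave 0.48 in the dDG input (FDR = 0.178), from 51.4, 63.8 and 66.8 CPM in WT to 75.9 and 94.4 in cKO. The other higher members there were Akap13 (0.44, FDR = 0.210), Pde4d (0.38), Pde4b (0.33), Pde4a (0.33), Gnas (0.32), Pde7a (0.31), Akap9 (0.25) and Rapgef6 (0.24). Adcy8 gave -1.06 in the dDG input (FDR = 0.234) at 2.61, 6.73 and 5.95 CPM in WT and 2.33 and 2.59 in cKO, and -0.78 in the IP (FDR = 0.366). WT dDG replicate 1 stood at the cKO level, and WT dDG replicates 2 and 3 are those with high choroid plexus markers. The part of choroid plexus in the value of Adcy8 was not tested. Crtc2 (-0.36) and Pde7b (-0.28) were the other lower members in the dDG input.

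Several abundant members were not called between genotypes as tested here. Under alternatives, in the dDG input, Gnas was called with the replicate block, alone or after removal of the length trend, and without WT dDG replicate 3 or replicates 2 and 3. Pde1a was called there without a count filter, with the block after removal of the length trend, and without WT dDG replicates 2 and 3. Between genotypes the block joins WT and cKO pools of the same number, which come from different mice, so calls made with it rest on no shared pool. The 95% interval of the cKO difference in the IP was -0.22 to 0.38 for Gnas, -0.46 to 0.16 for Adcy1, -0.42 to 0.22 for Pde1a, -0.03 to 0.56 for Prkaca and -0.17 to 0.35 for Crtc1 on the log2 scale. Each includes zero, and differences up to these bounds are compatible with the libraries.

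Atf1, a CREB family factor (ENSMUSG00000023027, chromosome 15, 100227819 to 100261244, plus strand), differed between genotypes in opposite directions in the 2 regions. It stood at 27.7, 25.8 and 29.8 CPM in the WT vDG inputs and 38.2 and 39.2 in the cKO vDG inputs. In the dDG inputs it read 50.3, 36.3 and 47.1 in WT and 31.6 and 26.7 in cKO. The genotypes did not overlap in either region, with cKO above WT in vDG (0.47, SE 0.14, FDR = 0.0749) and below it in dDG (-0.62, SE 0.15, FDR = 0.161). Read along the axis, Atf1 was lower in vDG in WT (-0.66, FDR = 0.00323) and higher in vDG in cKO (0.42, FDR = 0.0322). The WT call was kept with any 1 library left out, whereas the cKO call was lost without cKO vDG input replicate 1 (FDR = 0.0712) or 2 (FDR = 0.0874) and without cKO dDG replicate 2 (FDR = 0.333), with all 15 libraries in one fit (FDR = 0.224) and after removal of the length trend (FDR = 0.0743). The interaction of genotype and region was 1.08 on the log2 scale (95% interval 0.65 to 1.51, FDR = 0.0999, edgeR), and so missed the threshold of 0.05, as did all 57 members and all 16306 genes. At an unadjusted p under 0.05 there were 13 members (22.8%), 2 higher and 11 lower with Atf1 among the higher, beside 12.3% of all genes. DESeq2 called Atf1, Akap9 and Pde1a, beside 1.57% of all genes. The interaction of Atf1 passed with DESeq2 (FDR = 6.99e-04), without a count filter (FDR = 3.31e-04), with the replicate block (FDR = 0.00990) and with the block after removal of the length trend (FDR = 0.00998). It also passed without WT dDG replicates 2 and 3 (FDR = 0.0275) and without cKO dDG replicate 1 (FDR = 0.0464), fits in which 1 group is a lone library and takes its spread from the others. The FDR was 0.532 without cKO vDG input replicate 1 and 0.359 with all 15 libraries in one fit. Without cKO dDG replicate 2 the FDR was 0.978 at a log2 value of 0.97, and over all alternatives the log2 value ranged from 0.97 to 1.26. In the IPs Atf1 read 21.0, 34.0 and 31.4 CPM in WT and 37.2 and 31.0 in cKO, which overlapped. No cell marker was called between genotypes in the dDG input. List medians there were -1.90 for choroid plexus, -0.78 for endothelial and mural cells, -0.54 for microglia and -0.43 for astrocytes, and 0.05 for striatal projection neurons. For genotype by region the choroid plexus median was 2.55. The part of these cell types in the values of Atf1 was not tested.

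**Figure D4:**
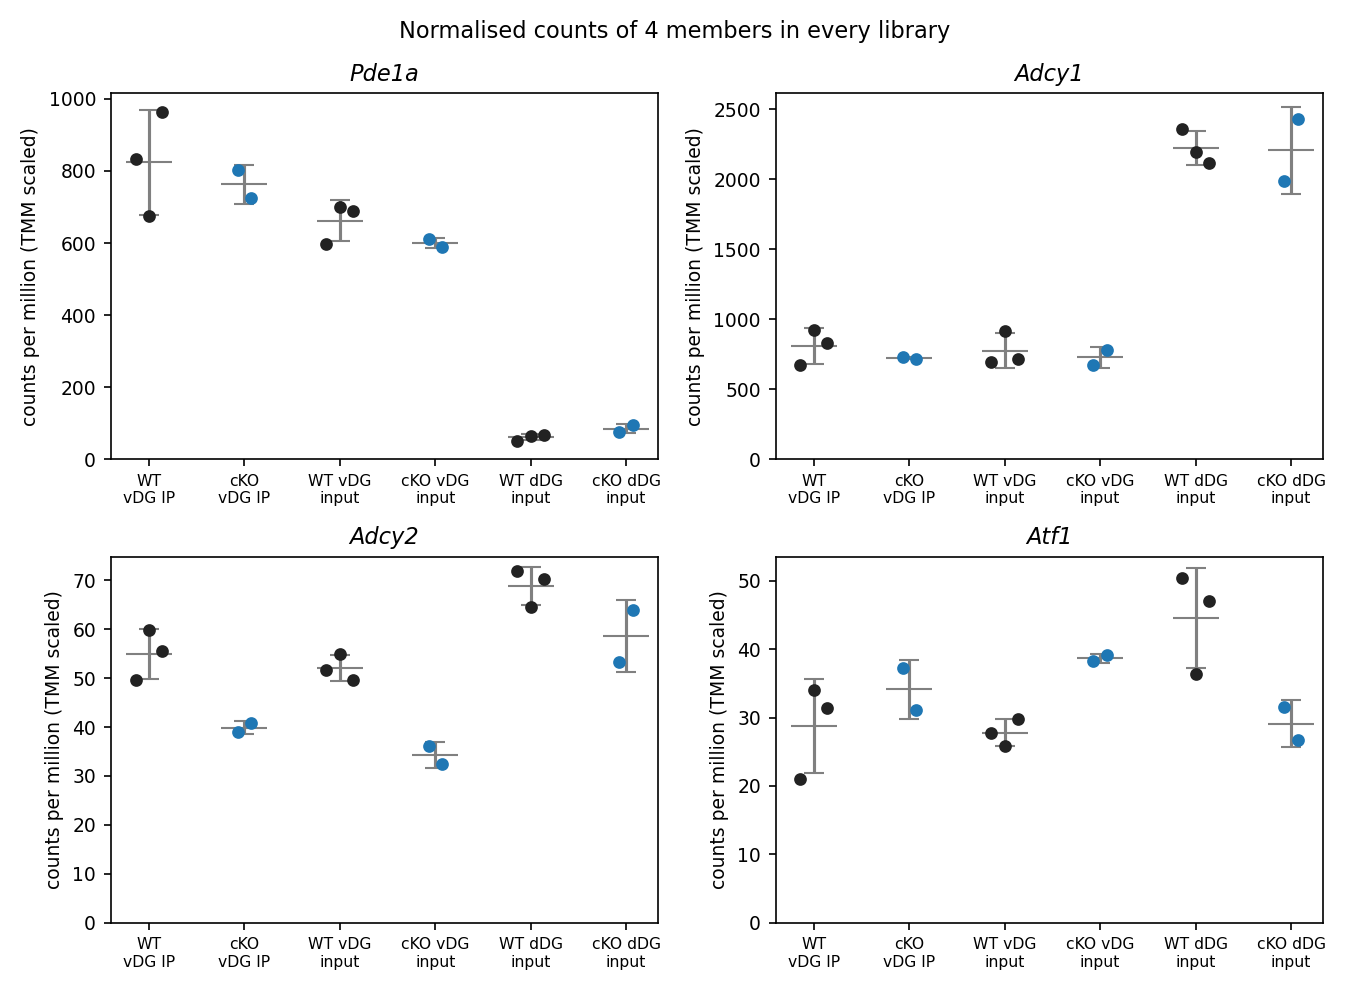
Normalised counts (CPM, TMM scaled, vertical axes from 0) of Pde1a, Adcy1, Adcy2 and Atf1 in every library of the 6 groups, WT in black and cKO in blue, with group mean and SD in grey. Pde1a is low and Adcy1 high in both dDG groups, Adcy2 is lower in cKO than WT in each preparation, and Atf1 in cKO is above WT in vDG input and below it in dDG input.

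**Figure D5:**
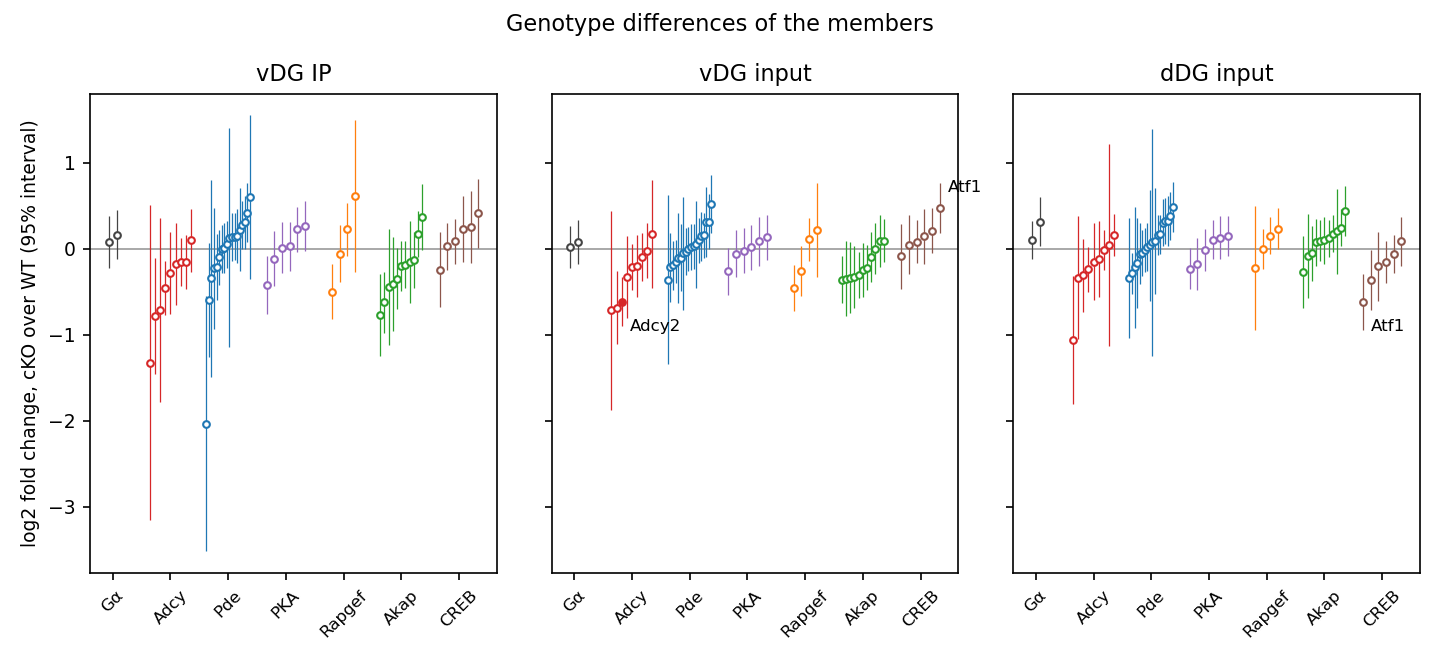
Log2 fold change of cKO over WT with its 95% interval for every member tested in the vDG IP, vDG input and dDG input, grouped by class, where a filled point is past the threshold. Only Adcy2 in the vDG input is filled, and most intervals include zero.

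Genes around the pathway were counted on 5 lists. Of 29 Gs-coupled receptors, Htr4 was the gene past the threshold between genotypes, higher in cKO by 0.93 in the IP (FDR = 0.0705) and 0.86 in the vDG input (FDR = 0.00644), with 18 and 20 of the list tested. Of 24 CREB target genes, Cartpt was lower in the cKO IP (FDR = 0.0864), at 1.96, 1.94 and 0.989 CPM in WT and 0 and 0.169 in cKO. In the same comparison 1 of 5 tested interneuron markers was called lower (sums of 116 and 131 CPM in cKO against 166 to 190 in WT), and the list medians were -0.46 for mossy cells and -0.72 for astrocytes, with no call. Their part was not tested. Scg2, a granin of secretory vesicles, was lower in the cKO vDG input (-0.79, FDR = 0.00396), at 116, 138 and 111 CPM in WT against 75.2 and 66.1. The list medians of CREB targets were -0.20 in the IP, -0.28 in the vDG input and 0.02 in the dDG input. No gene passed among 20 Gi/o alpha subunits and RGS proteins, 17 protein kinase A inhibitors and targets and 23 CREB kinases and cofactors in any comparison of genotypes. Between regions in WT, 9 CREB targets were higher in vDG and 3 lower of 23 tested, beside 9.26% and 6.09% of all genes, and in cKO 8 and 7 of 22, beside 8.56% and 8.47%.

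The promoters of the members were searched for the cyclic AMP response element that CREB family factors bind. The windows hold the bases from 250 before to 50 after each RefSeq transcription start on GRCm38.p6, and a window was at hand for 52 of the 65 members. The full element TGACGTCA, which reads the same on both strands, occurred in 1 of 52 members (1.92%) and in 549 of 27025 genes (2.03%). The member was Prkar1a, whose element starts 49 bases before an annotated start and 38 bases after another. The 5-base core TGACG or its complement CGTCA, which the full element contains, occurred in 19 of 52 members (36.5%) and in 23.0% of all genes, and in 5 of the 6 kinase subunits. It was found near Pde1a (1 of 4 windows), Pde2a (1 of 5), Pde4b (1 of 4), Adcy9 and Atf1 and in no window of Adcy1 or Adcy2. Other called members had it, such as Prkaca, Prkacb, Akap11, Pde8a and Rapgef3. Others again had it in no window, among them Rapgef2, Rapgef4, Pde1b, Pde4d, Crtc1, Prkar2b, Akap5, Akap6, Akap7 and Akap13. Genes with more starts have more windows, and a match is a description of letters and not of binding. Capitals mark the element or its core in the sequences of Prkar1a and of members whose levels differed between regions or fractions:
Prkar1a (chr11:109650890-109650917, plus strand): cgaggcgcatTGACGTCAgcagccgaac
Pde1a (chr2:80039054-80039078, minus strand): aacttcagccCGTCAttcctcagta
Pde2a (chr7:101450524-101450548, plus strand): ggcgcaggagCGTCAcggctgctgc
Pde4b (chr4:102421511-102421535, plus strand): tttggctgcaCGTCAattttctcat
Adcy9 (chr16:4420508-4420532, minus strand): gacccggcggTGACGtgcgcgggcc
Atf1 (chr15:100227759-100227783, plus strand): gaccacgcggTGACGcagcacgccg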

How the data were processed

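Files with 1 column of counts per library were used as deposited. The authors trimmed and aligned the reads to mm10 with STAR (2.4.2a), removed duplicates with SAMtools (0.1.19-444), and made the whole-number counts per gene with HTSeq. The kit did not mark strand. Rows naming no gene (24.7 to 37.8% of each file) were left out, and 25 per-library columns of the authors' comparison tables were not used.

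Counts were tested with edgeR (4.0.16, quasi-likelihood F test, TMM scaling, filterByExpr) within the libraries of each comparison, with Benjamini-Hochberg FDR under 0.05 (0.1 between genotypes in the IP). The fit was tested on simulated data. CPM and RPKM were computed with TMM factors and exonic lengths of GENCODE M21. DESeq2 (1.42.0), other scalings, filters, a length correction, a replicate block and fits without each library were the alternatives. The members and lists were chosen with earlier results of these data known. Genes were named by rule: the 2 members of each class with the highest RPKM in the WT vDG IP (1 where the class has 2), every member or listed gene past the threshold between genotypes or in an interaction, up to 3 members of each class with the largest change in each direction in the other comparisons, Atf1, and members that failed the filter throughout. Deviations of same-numbered WT IP and input libraries from their group means correlated between -0.329 and 0.464 over 9134 genes. With 2 cKO libraries per group such values are equal and opposite by construction (0.440 and -0.440 for IP and input). They cannot show pairing there, and numbers were not taken as pairs. Numbers are those of the titles. The deposited file names number cKO dDG libraries 1 and 2 as 2 and 3, so the block may not join the pools it is meant to join. In comparisons of cKO with WT the block joins pools of different mice by number alone.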

Additional observations from a re-analysis of the deposited data

Results flagged for a closer look

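Atf1 and Akap9 stood out because the cKO libraries lay wholly on one side of the WT libraries in the vDG input and wholly on the other side in the dDG input. For Atf1 the difference between the regions was 1.08 on the log2 scale (0.47 in vDG and -0.62 in dDG, FDR = 0.0999, edgeR). For Akap9 it was -0.62 (-0.36 in vDG and 0.25 in dDG, FDR = 0.181), from 309.5, 362 and 286 CPM in WT and 277 and 224 in cKO vDG inputs, and from 338, 309 and 335 in WT and 373 and 407 in cKO dDG inputs. Neither passed the threshold of 0.05 in these edgeR fits, while DESeq2 called both. Atf1 also passed without a count filter (FDR = 3.31e-04), with the replicate block (FDR = 0.00990), with the block after removal of the length trend (FDR = 0.00998), without WT dDG replicates 2 and 3 (FDR = 0.0275) and without cKO dDG replicate 1 (FDR = 0.0464), both of which leave a lone library in 1 group. It did not pass without cKO dDG replicate 2 (FDR = 0.978), without cKO vDG input replicate 1 (FDR = 0.532) or with all 15 libraries in one fit (FDR = 0.359), and a threshold of 0.1 in place of 0.05 would include it. The span of Akap9 overlaps that of Cyp51 on the opposite strand, and the library did not mark strand.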

How the results depend on the processing

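Over the members named in a comparison, 1080 of 1271 alternative values kept their direction and their side of the threshold, 180 no longer passed it, 11 newly passed it, and none changed sign. With 1 library left out at a time, members called ranged from 12 to 19 (WT IP), 13 to 23 (cKO IP), 14 to 15 (WT regions), 15 to 20 (cKO regions), 0 to 2 (cKO against WT, IP), 0 to 2 (vDG input), 0 to 1 (dDG input), 0 to 1 (genotype by region) and 0 to 0 (genotype by fraction). Counts of members with 1 library left out, here and in the sections above, stand without the share of all genes called. They describe the fits and not the members. One fit of all 15 libraries called 11 in the cKO regions and 4 between genotypes in the IP (8.25% and 2.85% of all genes). DESeq2 called 2, 4 and 1 between genotypes in the IP, vDG input and dDG input and 3 for genotype by region (2.47%, 3.97%, 1.22% and 1.57% of all genes), and no count filter gave 3 in each of these (1.58 to 3.0%). An FDR of 0.1 gave 5 in the vDG input and 1 for genotype by region (4.35% and 0.0736%), and at least 10 counts in every library gave 2 in the vDG input (3.2%). Leaving out WT dDG replicates 2 and 3, chosen after seeing the data, gave 7 in the dDG input and 1 for genotype by region (7.03% and 0.0767%).

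The replicate block moved the counts of members called to 15 and 31 (WT and cKO IP, beside 22.1% and 37.8% of all genes), 22 and 31 (WT and cKO regions, beside 19.1% and 24.9%), 0, 2 and 1 (between genotypes in IP, vDG input and dDG input) and 1 for genotype by region (Atf1), where 0.413 to 2.60% of all genes were called. The block together with removal of the length trend gave 4, 0 and 2 between genotypes in IP, vDG input and dDG input and 1 for genotype by region, beside 0.456 to 2.55% of all genes. Not every library correlated best with its own number, so the numbers were not read as pairs, although vDG inputs and IPs can share extracts. Between genotypes the numbers join pools of different mice, so the block has no shared pool to account for there. Removing the length trend alone split the IP calls 16 higher to 8 lower in WT and 17 to 11 in cKO, beside 33.7% and 33.6% of all genes called. With library size as the sole scaling, the region calls in cKO were split 15 to 7, beside 17.5% of all genes called. The causes of these shifts were not tested. With 2 cKO pools per group, small differences could not be resolved. Calls that rest on few counts, such as Pde11a with 5 in each cKO IP, are uncertain.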
